A study of Mus musculus with 6 samples.

Results

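Small nucleolar RNA host genes are genes whose introns carry small nucleolar RNAs (snoRNAs), and the 9 described here are long noncoding (lncRNA) hosts. They are Snhg12, Snhg3, Gas5, Snhg1, Snhg5, Snhg6, Snhg8, Snhg11 and Snhg20, out of 55536 genes in the count table. Snhg12 was chosen by its lower counts in DKO than in the other genotypes, and the other members were taken as hosts of the same kind. All 9 passed the filter on low counts that left 20744 genes for testing, and the choice of Snhg12 means that its DKO values are given as a description without a test. RNA was measured in whole testes of 4-month-old FVB/NJ mice by poly(A)-selected, strand-specific sequencing, with 2 mice and so 2 libraries per genotype. WT mice carried no targeted allele. P2KO mice carried an allele of Padi2, a gene for a peptidylarginine deiminase, that the paper describes as null. It holds an insertion of LacZ and neomycin sequence in place of the part of exon 1 that follows the start codon. DKO mice carried that same Padi2 allele together with a 4-nucleotide deletion in exon 1 of Padi4, made by CRISPR/Cas9 in Padi2-null embryos, and all DKO mice descend from a single edited founder. With bulk tissue, fewer cells of a type and less RNA per cell cannot be told apart.

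A lncRNA host is spliced, and its introns are trimmed to release the snoRNAs, which guide chemical modification of ribosomal and other RNAs in the nucleolus. Box C/D snoRNAs guide ribose methylation with the enzyme fibrillarin, whereas box H/ACA snoRNAs guide pseudouridylation with dyskerin. The spliced host transcripts usually hold no long reading frame, several of them begin with a run of pyrimidines like that of ribosomal protein messages, and some, such as Gas5, are known substrates of nonsense-mediated decay (NMD).

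Both chromosome 4 members lie close together in GRCm38, at 8.6 Mb from Padi2. Snhg12 (ENSMUSG00000086290) is a lincRNA on the plus strand at chr4:132308623-132311024. Snhg3 (ENSMUSG00000085241) is a processed transcript on the minus strand at chr4:132348014-132353686, so that 37.0 kb separate them. Snhg12 carries 4 snoRNAs by name, namely Snora16a, Snora44 and Snora61, which are named as H/ACA snoRNAs, and Snord99, which is named as a C/D snoRNA. Their sequences are shown because they are what Snhg12 hosts, and they are taken from the GENCODE release 21 transcripts on GRCm38. Capitals mark the ACA that ends 3 bases before the last base, or the C box (TGATGA) and the D box (CTGA).

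Snora16a: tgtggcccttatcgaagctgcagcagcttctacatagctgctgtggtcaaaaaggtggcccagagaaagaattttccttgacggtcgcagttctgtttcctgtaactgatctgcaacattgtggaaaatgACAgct
Snora44: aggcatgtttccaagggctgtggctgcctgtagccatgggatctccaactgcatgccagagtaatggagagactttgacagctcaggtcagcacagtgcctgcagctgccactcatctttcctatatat
Snora61: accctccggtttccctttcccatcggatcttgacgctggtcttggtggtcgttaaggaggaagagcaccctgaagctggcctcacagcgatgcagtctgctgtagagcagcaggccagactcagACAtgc
Snord99: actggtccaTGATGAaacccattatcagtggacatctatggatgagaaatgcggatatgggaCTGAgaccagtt

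The annotated Snora44 has no ACA at that place. An ACA there was found in 83.3% of the 42 transcripts named Snora and in 18.3% of all 1507 annotated snoRNA transcripts. TGATGA within the first 20 bases together with CTGA within the last 20 was found in 69.4% of the 98 transcripts named Snord and in 20.5% of all. These searches used the strand of the snoRNA only.

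Snhg3 carries Snora73a and Snora73b, which also lie within the span of the protein-coding gene Rcc1 on the same strand. They are shown because they are the nested snoRNAs with nearly all the nested reads, and because their likeness bears on where a read is placed.

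Snora73a: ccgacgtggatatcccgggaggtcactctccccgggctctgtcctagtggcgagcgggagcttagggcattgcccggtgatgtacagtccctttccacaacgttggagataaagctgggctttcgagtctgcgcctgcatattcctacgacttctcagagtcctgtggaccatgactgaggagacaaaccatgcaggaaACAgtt
Snora73b: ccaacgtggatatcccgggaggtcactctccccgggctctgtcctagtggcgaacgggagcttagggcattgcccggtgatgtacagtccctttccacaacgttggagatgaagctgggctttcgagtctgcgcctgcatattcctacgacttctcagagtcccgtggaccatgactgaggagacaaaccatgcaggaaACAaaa

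Both are 205 bases long, and they are 96.6% identical with 7 differences, which are G3A, G54A, A111G, T164C, G203A, T204A and T205A, counted from the 5′ end with the base of Snora73a first.

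**Figure D1:**
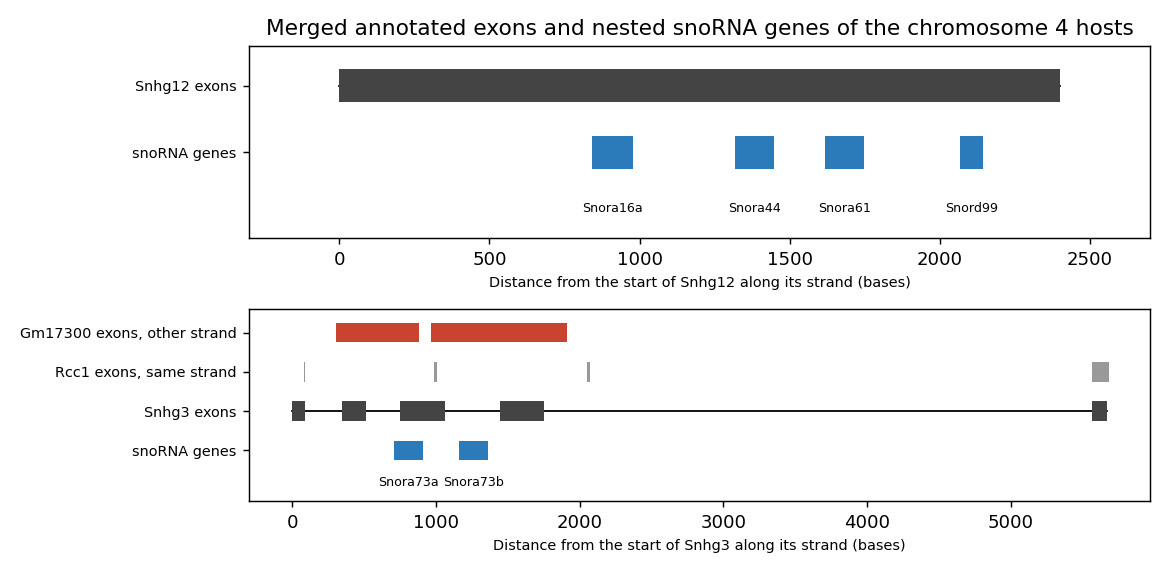
Merged exons of Snhg12 and Snhg3 (dark), nested snoRNA genes (blue) and, for Snhg3, exons of Rcc1 (grey) and Gm17300 (red), against the distance in bases from the host's start along its strand. The exons of the 10 annotated Snhg12 transcripts together cover its whole span, whereas Snhg3 has 986 exon bases, 71.5% of which lie under exons of Gm17300 on the other strand.

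The start of the host RNA was examined because a pyrimidine run there is a known feature of this class of gene. A window of 25 bases on each side of the RefSeq start (GRCm38.p6) was read for 8 members, all but Snhg6, and capitals mark its longest run of C and T.

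Snhg12: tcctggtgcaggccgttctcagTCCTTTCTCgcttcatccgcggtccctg
Snhg3: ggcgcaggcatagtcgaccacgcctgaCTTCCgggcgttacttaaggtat
Gas5 at the second start: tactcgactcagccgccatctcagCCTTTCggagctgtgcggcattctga
Snhg1: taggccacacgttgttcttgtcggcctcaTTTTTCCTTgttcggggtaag
Snhg5: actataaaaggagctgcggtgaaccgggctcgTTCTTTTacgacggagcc
Snhg8: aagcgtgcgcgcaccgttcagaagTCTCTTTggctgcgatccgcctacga

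The window of Snhg12 covers chr4:132308653-132308702 and that of Snhg3 chr4:132353662-132353711. The longest run was 9 bases in Snhg12, and 13.3% of the 32851 windows of all genes hold a run at least as long. In Snhg1 it was also 9 bases, in Snhg5 and Snhg8 7 bases (29.3% of windows), and at the second start of Gas5 6 bases (43.9%). In Snhg3 and Snhg20 it was 5 bases (64.7%), which is the median over all windows. In Snhg11 it was 4 bases (84.4%) and at the first start of Gas5 3 bases (96.3%). Runs longer than the median were thus found in 5 of the 8 members, in Gas5 at the second start alone. Such runs are in 43.9% of all windows, and Gas5 was read at both starts. Whether the members exceed that share was not tested. The search took a run anywhere in the window. Relative to the annotated start, it began at -3 in Snhg12, 5 in Snhg1 and 8 in Snhg5. In Snhg8 and at the second Gas5 start it began at -1. The chromosome 4 pair did not share a long run around the annotated start.

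Each library held between 21939393 and 27306679 counts, and counts were scaled to normalized counts for a library of average size. Markers of testicular germ cells, Sertoli cells and Leydig cells were present in every library, and 5 of the 6 epididymis markers were at or under 3 counts. The summed normalized counts of 6 spermatid markers ran from 308738 to 320469 in WT, from 259617 to 289278 in P2KO and from 279929 to 281949 in DKO. Those of 6 Leydig markers ran from 15881 to 16266, from 16734 to 18683 and from 17111 to 20906. Prm1 and Tnp1, which package sperm DNA, were called lower in DKO than in WT, and of the Leydig markers 3 were called higher and 1 lower. These are 33.3% of the spermatid and 66.7% of the Leydig markers, where 3.22% of all tested genes were called. Of the spermatid markers, Tnp2 was called lower in P2KO than in WT (16.7%, where 0.337% of tested genes were called). Spaca1 was called lower in DKO than in P2KO (16.7%, where 1.21% were), and 0 Leydig markers were called in these comparisons. Their part in the host gene values was not tested. Padi4 had 20 and 43 counts in WT, 11 and 10 in P2KO and 4 and 4 in DKO, while Padi2 had 47 and 64 in WT, 100 and 55 in P2KO and 59 and 83 in DKO. The Padi2 count thus did not separate the genotypes. The paper found no Padi2 transcript by RT-PCR in salivary gland and no PAD2 protein in spleen of P2KO and DKO mice. Counts per gene do not show which exons were read.

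In WT testis the host genes differed widely in level. Per kilobase of merged exons, Snhg8 stood first with a mean of 11.8 CPM (counts scaled to a fixed library total), from 11.5 to 12.1 in the libraries. Snhg5 (6.45), Gas5 (4.83) and Snhg3 (4.64) followed, then Snhg12 (1.79), Snhg6 (1.55), Snhg20 (1.20) and Snhg1 (1.06), and Snhg11, which is best known from brain, was last with 0.463 CPM per kilobase. The WT libraries of neighbours in this order overlapped for Gas5 and Snhg3, for Snhg12 and Snhg6, for Snhg6 and Snhg20, and for Snhg20 and Snhg1. They did not overlap for the other neighbours. Part of this order depends on the length used. Merged exons fill the whole span of Snhg12, Snhg1 and Snhg8 and most of that of Gas5 (3760 bases of 4.12 kb), but 986 bases of 5.67 kb in Snhg3. By mean normalized count in WT, with no length used, Gas5 (445) stood above Snhg5 (274) and Snhg8 (246). Over the exon bases that no other gene on the same strand covers, where reads can be counted, Snhg3 (6.61) came before Gas5 (5.87) and Snhg1 (1.35) before Snhg20 (1.30), and the WT libraries of Snhg5 and Snhg3 overlapped while those of Snhg12 and Snhg6 did not. Snhg11 is typed as protein-coding in this annotation although RefSeq lists it as noncoding, and its 8521 exon bases lower its level per length.

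**Figure D2:**
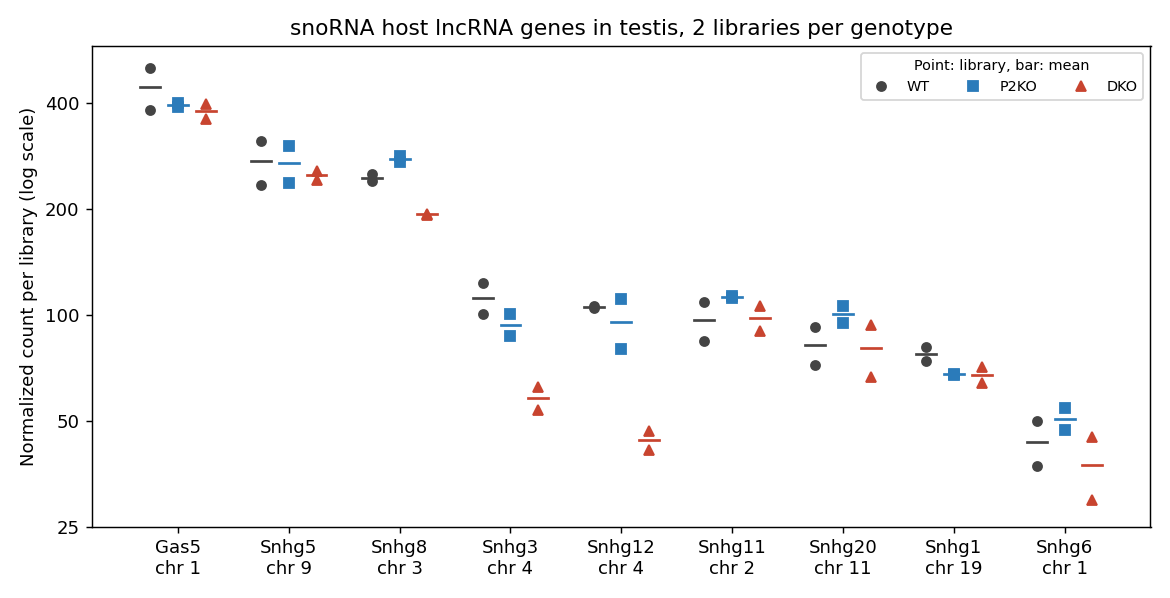
Normalized counts of the 9 host genes in each library (log scale), with a bar at the mean of the 2 libraries of a genotype. In Snhg12 and Snhg3 both DKO libraries, at 41.3 to 62.6, lie below all 4 other libraries, and in Snhg8 the DKO libraries, at 193 and 194, do so by a smaller margin.

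In DKO, Snhg12 and Snhg3 stood lower than in the other genotypes. Snhg12, a host of mostly H/ACA snoRNAs, had normalized counts of 106 and 105 in WT, 79.8 and 111 in P2KO, and 46.9 and 41.3 in DKO. Every DKO value lay below every other value, whereas the P2KO libraries straddled the WT ones. The DKO mean was 41.9% of the WT mean, and the fitted log2 fold change was -1.25 (SE 0.217, 2.37-fold lower) against WT and -1.09 (SE 0.22, 2.13-fold lower) against P2KO. In P2KO against WT it was -0.16 (SE 0.192), less than its error, and it was 0.07 without the first P2KO library.

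Snhg3, the host of the Snora73 pair, had normalized counts of 101 and 123 in WT, 86.9 and 101 in P2KO, and 53.6 and 62.6 in DKO. The DKO libraries were again the lowest, and the higher P2KO library lay just below the lower WT library. Snhg3 fell by 0.96 on the log2 scale in DKO against WT (SE 0.201, 1.95-fold lower, edgeR quasi-likelihood test, Benjamini-Hochberg adjusted p = 0.00269). Against P2KO the log2 difference was -0.69 (SE 0.205, edgeR adjusted p = 0.0982), and P2KO against WT gave -0.27 (SE 0.185, adjusted p = 0.744). The difference from WT did not pass the threshold without the second WT library (log2 -0.81, edgeR adjusted p = 0.0744) or without the first DKO library (-0.86, adjusted p = 0.0814), and the difference from P2KO passed it without either WT library (adjusted p = 0.0429 and 0.044). DKO against WT and DKO against P2KO share the DKO libraries, so the values are not independent of each other.

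Of the members on other chromosomes, Snhg8 had the largest log2 differences in both DKO comparisons with all 6 libraries, though not in P2KO against WT. With a library left out, Snhg6 reached -0.57 against WT and -0.77 against P2KO. These lie beyond the furthest values of Snhg8, at -0.38 and -0.55, so the rank depends on single libraries. Snhg8, the host of Snora24 at chr3:123507552-123508404, had normalized counts of 252 and 240 in WT, 272 and 283 in P2KO, and 193 and 194 in DKO. The libraries of the 3 genotypes did not overlap, and DKO was lowest and P2KO highest. Snhg8 fell by 0.52 on the log2 scale in DKO against P2KO (SE 0.125, edgeR adjusted p = 0.0245), while DKO against WT gave -0.34 (SE 0.128, adjusted p = 0.164) and P2KO against WT 0.18 (SE 0.121, adjusted p = 0.746). The difference from P2KO did not pass the threshold with DESeq2 (adjusted p = 0.157), after a correction for gene length (edgeR adjusted p = 0.0531), or when any P2KO or DKO library was left out (edgeR adjusted p from 0.104 to 0.209).

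Gas5 and Snhg1, which carry the most nested snoRNA genes of the 9 members, 10 and 8, did not pass the test in any comparison. Gas5, at chr1:161034422-161038539, had 384 and 506 normalized counts in WT, 392 and 402 in P2KO, and 362 and 399 in DKO. The WT libraries spanned a wider range than all the others together. Its log2 difference in DKO against WT was -0.24 (SE 0.114, edgeR adjusted p = 0.337), but this rested on the WT libraries, since it was -0.42 without the first (edgeR adjusted p = 0.0237) and -0.0167 without the second (edgeR adjusted p = 0.991). Snhg1, at chr19:8723475-8726443, had 81.1 and 74.1 in WT, 67.4 and 68.1 in P2KO, and 64.2 and 71.0 in DKO. Both mutant genotypes lay below WT, with log2 differences of -0.19 (SE 0.205) and -0.20 (SE 0.206) and edgeR adjusted p values of 0.862 and 0.755.

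The remaining 4 members did not pass the test in any comparison. Snhg5, the host of Snord50a and Snord50b at chr9:88521050-88522929, ran from 235 to 312 normalized counts over the 6 libraries, with a log2 difference of -0.14 (SE 0.136) in DKO against WT. It has a stretch of 233 bases about 96% identical with 9330159M07Rik and 9430037G07Rik, so reads there could be split among them. Snhg6, the host of Snord87 at chr1:9941959-9944118, ran from 29.7 to 54.3 (-0.23, SE 0.279), with the highest value in P2KO and the lowest in DKO. Snhg11, at chr2:158375638-158386145, ran from 84.5 to 113 (0.01, SE 0.187), and Snhg20, at chr11:117076008-117078955, whose nested gene is a scaRNA of the Cajal body, from 66.8 to 106 (-0.04, SE 0.206). The edgeR adjusted p values of these 4 members in DKO against WT ran from 0.72 to 0.989.

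**Figure D3:**
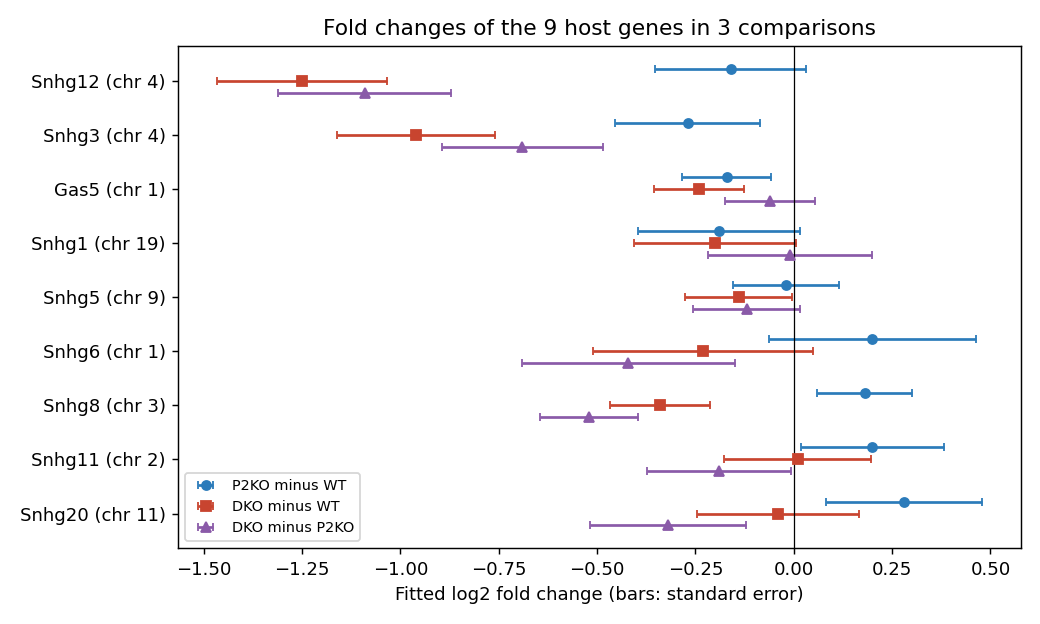
Fitted log2 fold change of each host gene (x axis) with its standard error in the 3 comparisons, by gene and chromosome (y axis). Snhg12 (-1.25) and Snhg3 (-0.96) lie apart from the other members in DKO minus WT, which run from -0.34 to 0.01.

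In P2KO against WT, 0 of 9 host genes were called at an adjusted p under 0.05 by edgeR, where 0.337% of all tested genes were called (0.14% lower and 0.198% higher), and 0 had an unadjusted p under 0.05, where 8.57% of tested genes did. DESeq2 called 0 as well. Both P2KO libraries lay below both WT libraries in 2 members (Snhg3 and Snhg1), where 18.8% of tested genes did, and above them in 3 (Snhg8, Snhg11 and Snhg20), where 18.7% did. In DKO against WT, 2 of 9 were called, both lower (Snhg12 and Snhg3), where 3.22% of tested genes were called (1.16% lower and 2.06% higher). Snhg12 is among them by choice. An unadjusted p under 0.05 was found in 4 members, where 14.1% of tested genes had one. In DKO against P2KO it was found in 3, where 11.8% had one, and Snhg12 is in both by choice. In DKO against P2KO, 2 were called lower (Snhg12, again by choice, and Snhg8), where 1.21% were called (0.598% lower and 0.607% higher). This count ran from 0, without the second P2KO or the second DKO library, to 3. The DKO libraries lay below both WT libraries in 4 of 9 members and above them in 0, where 21.6% of tested genes lay on each side. They lay below both P2KO libraries in 6 of 9 and above them in 0, where 21.6% and 21.1% of tested genes did. Snhg12 is in both counts by choice, and without it they were 3 and 5 of 8. The median log2 difference of the 2 chromosome 4 members was -1.10 in DKO against WT and that of the other 7 was -0.20, with -0.005 over all tested genes. The first of these is the mean of Snhg3 and of Snhg12, which was selected on this value, so the medians are a description only. In DKO against P2KO these medians were -0.89, -0.19 and -0.003, and in P2KO against WT -0.21, 0.18 and 0.004. Single libraries moved several of them. The median of the other 7 was 0.0163 in DKO against WT without the second WT library and 0.0094 in P2KO against WT without the first, and in DKO against P2KO it ran from -0.32 to -0.13, lowest without the first DKO library. That of the chromosome 4 pair in P2KO against WT ran from -0.39 without the second P2KO library to -0.042 without the first, and was -0.14 without the second WT library. Of the 7 members on other chromosomes, 6 had a value below 0 in DKO against WT, where 51.2% of tested genes did, but 3 without the second WT library and 4 without the second DKO library. In DKO against P2KO, which shares the DKO libraries, 7 were below 0, where 50.8% of tested genes were, and 5 to 7 with a library left out. Among these values only that of Snhg8 against P2KO passed the test.

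The nested snoRNAs themselves were hardly counted. Among the 32 snoRNA genes inside the 9 hosts, 28 lie wholly inside an annotated host exon, and all 28 had 0 counts in all 6 libraries. A read on such a snoRNA overlaps 2 genes and is assigned to neither by the counting used, and poly(A) selection does not retain mature snoRNAs, so 0 counts say nothing of their level. All 5 snoRNA gene entries inside Snhg12 (Snora16a has 2) are of this kind. Snora73b lies outside the exons of Snhg3 and also within the span of Rcc1, and which RNA its reads came from was not tested. Snora73b had 14 and 20 counts in WT, 7 and 11 in P2KO, and 7 and 12 in DKO. Its WT libraries were the highest, but the log2 difference in DKO against WT was -0.84 (SE 0.495, adjusted p = 0.482 by edgeR). Snora73a had from 0 to 3 counts per library.

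Counting also leaves parts of the hosts unread. Exons of other genes on the same strand cover 29.8% of the exon bases of Snhg3 (Rcc1 and Snora73a) and 19.6% of those of Snhg12 (its nested snoRNAs), against 0% to 20.9% in the other members, and reads there are not counted. Rcc1, a chromatin-bound exchange factor that shares exons with Snhg3, had from 5113 to 6597 counts and a log2 difference of -0.05 (SE 0.0568, edgeR adjusted p = 0.761) in DKO against WT. Gm17300, a lincRNA on the other strand of Snhg3, had 159 and 234 counts in WT, 240 and 190 in P2KO, and 2 and 0 in DKO, which is at least 62.2-fold lower than WT against a floor of 3 counts per library. The table was counted by strand, since 244 of the 498 genes whose exons are covered whole by exons of the other strand hold counts, so Gm17300 reads are not Snhg3 reads.

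Around the chromosome 4 pair, genes called lower in DKO lay among uncalled ones. Besides the members, 18 genes within 250 kb of Snhg12 or Snhg3 were tested. In DKO against WT 4 were called lower (22.2%, where 1.16% of tested genes were) and 1 higher (5.56%, where 2.06% were). In DKO against P2KO, which shares the DKO libraries, 4 were called lower (22.2%, where 0.598% of tested genes were) and 0 higher. Both DKO libraries lay below both WT libraries in 11 of the 18 and above them in 3, where 21.6% of tested genes lay on each side. In P2KO against WT 0 were called by edgeR (1 had an unadjusted p under 0.05). Trnau1ap, a selenocysteine tRNA binding protein gene that lies between the pair, had 275 and 291 normalized counts in WT, 302 and 277 in P2KO, and 170 and 141 in DKO. It fell by 0.86 on the log2 scale in DKO against WT (SE 0.133, edgeR adjusted p = 4.5e-05). Rab42, a small GTPase gene 5.2 kb upstream of the Snhg12 start, fell by 2.78 (SE 0.24, edgeR adjusted p = 1.81e-10), and the lincRNA Gm28874 fell by 2.52 (SE 0.333, edgeR adjusted p = 2.91e-06). Epb41, for a membrane skeleton protein, rose by 0.43 (SE 0.113, edgeR adjusted p = 0.0241), which did not pass the threshold with DESeq2 (adjusted p = 0.132), after the length correction (edgeR adjusted p = 0.293) or without any WT or DKO library (edgeR adjusted p from 0.0851 to 0.235). Genes that were called lower thus lay beside genes that were not called, such as Rcc1.

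**Figure D4:**
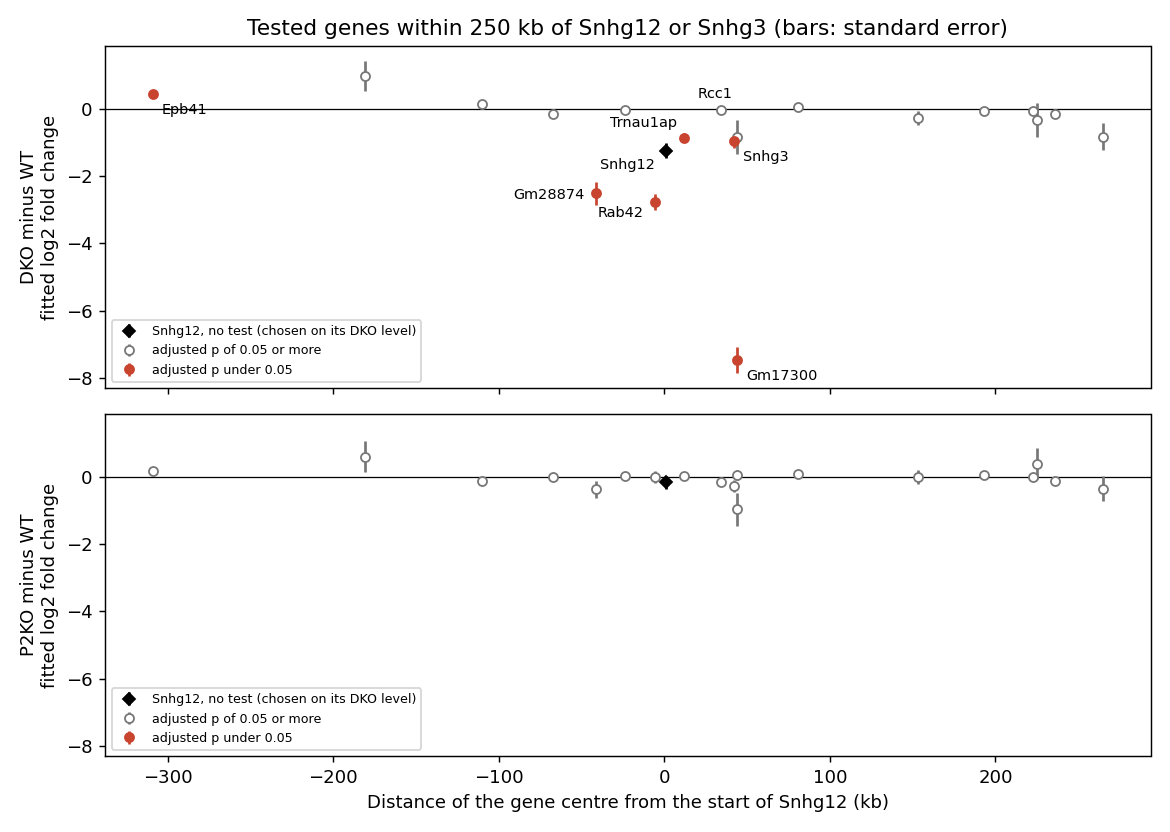
Fitted log2 fold change with its standard error of the tested genes within 250 kb of Snhg12 or Snhg3, against the distance in kb of the gene's centre from the Snhg12 start, for DKO minus WT (top) and P2KO minus WT (bottom). Red points were called and the black diamond is Snhg12. Called genes lie among uncalled ones in the top panel, the bottom panel has no call, and the fitted value of Gm17300, at the floor in DKO, depends on the prior count.

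The lncRNA hosts beyond these 9 held no call. Of 65 further lncRNA genes with a Snhg symbol or a nested snoRNA gene, 38 were tested, and 0 were called by edgeR in any comparison. In DKO against WT 3.22% of all tested genes were called, and at that share 0 of 38 is not read as a result about these genes. Several also had low counts and wide errors, such as Snhg15 with a mean of 23.6 normalized counts and an SE of 0.386. In DKO against WT 2 of the 38 had an unadjusted p under 0.05, where 14.1% of tested genes did, and the median log2 difference was -0.05. The 3 with the highest counts were Cct6a, a chaperonin gene that this annotation types as noncoding, 1700020G17Rik and Gm26512. Among the 7 tested that carry a Snhg name (such as Snhg15, Snhg17 and Snhg18), the median was -0.23 with a range from -0.79 to 1.11, and DKO lay below both WT libraries in 2 and above them in 1, where 21.6% of tested genes lay on each side.

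Protein-coding hosts of snoRNAs were called in both directions. Of 278, 250 were tested, and in DKO against WT 10 were called higher (4%, where 2.06% of tested genes were) and 2 lower (0.8%, where 1.16% were), with a median log2 difference of 0.02. Srcap, for a chromatin remodelling enzyme, rose by 0.98 (SE 0.258, edgeR adjusted p = 0.0246), Vps13b, for a lipid transfer protein, by 0.47 (SE 0.0814, edgeR adjusted p = 2.09e-04) and Cep295, for a centriole protein, by 0.42 (SE 0.067, edgeR adjusted p = 7.3e-05). After the length correction these were 0.82 for Srcap, 0.28 for Vps13b and 0.26 for Cep295. The call of Srcap was lost with DESeq2 (adjusted p = 0.203), with the length correction (edgeR adjusted p = 0.0812) and without the second WT library (0.57 on the log2 scale, edgeR adjusted p = 0.526) or either DKO library. The 10 that rose are long, with a median of 14877 exon bases against 3330 over tested genes. The 2 that fell are the ribosomal protein genes Rps20 on chromosome 4 (-0.22, SE 0.0602, edgeR adjusted p = 0.0352) and Rpl27a on chromosome 7 (-0.24, SE 0.0615, edgeR adjusted p = 0.0201), and both calls were lost without the second WT library (adjusted p = 0.366 and 0.0814) and without either DKO library, that of Rps20 also without either P2KO library and in an edgeR fit of the 2 genotypes (adjusted p = 0.051). In DKO against P2KO 3 were called, all higher (1.2%, where 0.607% of tested genes were). They were Ep400, Cep295 and Dnah6, by 0.25 to 0.27, each lost after the length correction and without the first P2KO or the second DKO library. Without the latter Dnah6 was at 0.16. The calls of Ep400 and Dnah6 were also lost with DESeq2 (adjusted p = 0.054 and 0.0926), where Cep295 was kept (0.0382). Those of Ep400 and Cep295 were lost without the first DKO library, and that of Ep400 without the second P2KO library. In P2KO against WT Mroh9 alone was called (0.4%, where 0.198% of tested genes were called higher), with a log2 difference of 0.29 (edgeR adjusted p = 0.0402), but not with DESeq2 (adjusted p = 0.112), in an edgeR fit of those 2 genotypes (adjusted p = 0.102) or when any library but the first WT one was left out.

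Among the genes of proteins that act with snoRNAs, Gar1 and Fbl were called lower in DKO against WT and Nolc1 lower in P2KO. All 20 genes of a list of snoRNP core and assembly factors were tested. Gar1, a subunit of the H/ACA particle, had 455 and 318 normalized counts in WT, 347 and 463 in P2KO, and 211 and 217 in DKO. Both DKO libraries lay below the other 4. Gar1 fell by 0.84 in DKO against WT (SE 0.143, edgeR adjusted p = 1.8e-04) and by 0.91 against P2KO (SE 0.142, edgeR adjusted p = 9.36e-05). With a library left out its log2 difference ran from -1.09 to -0.58 against WT and from -1.11 to -0.69 against P2KO. Fbl, the fibrillarin of the C/D particle, had 618 and 462 in WT, 457 and 591 in P2KO, and 403 and 393 in DKO. Like Gar1, Fbl was highest in the first WT and the second P2KO library. It fell by 0.43 in DKO against WT (SE 0.119, edgeR adjusted p = 0.0334), but the call was lost with DESeq2 (adjusted p = 0.15) and without the first WT library (-0.22, adjusted p = 0.412) or either DKO library.

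The other core subunits did not pass the test in DKO against WT. Dkc1, for dyskerin, gave a log2 difference of -0.26 (SE 0.176), Nop10 of 0.06 (SE 0.0761) and Nhp2 of -0.08 (SE 0.101), while Nop56 gave -0.21 (SE 0.11) and Nop58 0.02 (SE 0.067). Nolc1, a nucleolar and Cajal body chaperone of snoRNPs, differed in P2KO instead, with 941 and 874 normalized counts in WT, 593 and 630 in P2KO, and 973 and 942 in DKO. It fell by 0.57 in P2KO against WT (SE 0.0829, edgeR adjusted p = 5.5e-05) and rose by 0.65 in DKO against P2KO (SE 0.0824, edgeR adjusted p = 2.44e-06). The list's median log2 difference was -0.07 in DKO against WT, with 2 of 20 lower (10%, where 1.16% of tested genes were) and 0 higher.

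Of 17 NMD genes, 1 was called higher and 1 lower in DKO against WT (11.8% in all, where 3.22% of tested genes were called), with a median of 0.06. Smg1, the kinase that phosphorylates Upf1, rose by 0.43 (SE 0.0686, edgeR adjusted p = 7.38e-05), from 4742 and 4098 normalized counts in WT to 5590 and 6305 in DKO. After the length correction the rise was 0.21 (edgeR adjusted p = 0.0251). Upf3a, a factor of the exon junction branch, fell by 0.35 (SE 0.0577, edgeR adjusted p = 1e-04), from 7762 and 7299 to 5943 and 5842, and by 0.23 against P2KO (SE 0.0577, edgeR adjusted p = 0.0354). The latter call was lost without any P2KO or DKO library. Upf1 itself gave 0.10 (SE 0.0639). NMD factors thus did not move in a single direction, and in P2KO against WT 0 of 17 were called by edgeR, with 3 at an unadjusted p under 0.05, where 8.57% of tested genes were.

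**Figure D5:**
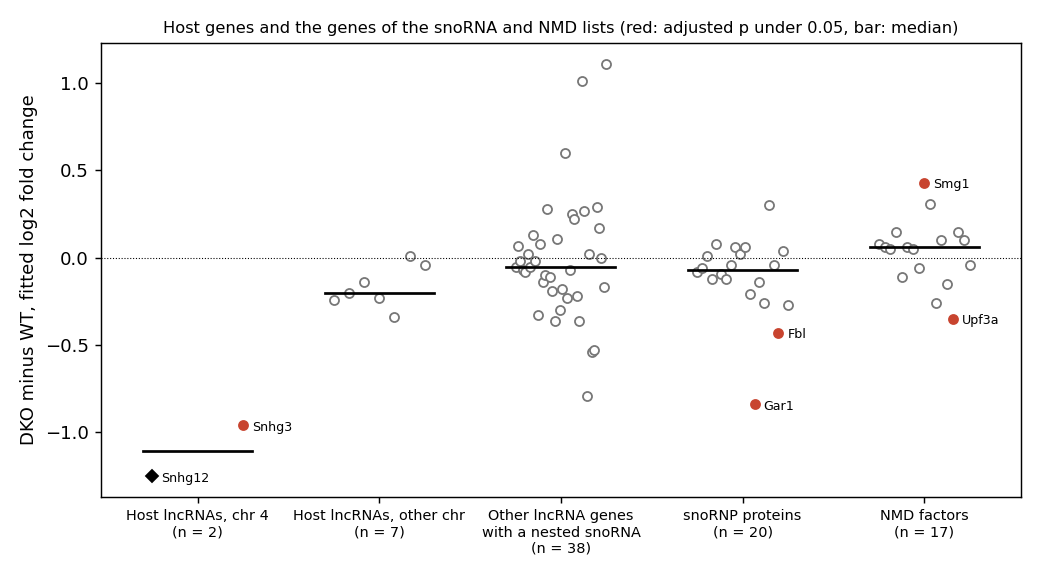
Fitted log2 fold change in DKO minus WT (y axis) of the host genes on and off chromosome 4, of 38 other lncRNA hosts, of 20 snoRNP genes and of 17 NMD genes, with a bar at each median. Red points were called, the black diamond is Snhg12, and the 38 other lncRNA hosts hold no call.

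The genes whose pattern was most like that of Snhg12 were sought over all 6 libraries by Pearson's correlation of log2 CPM. They were Pnrc2 (r = 0.997), an mRNA decay and nuclear receptor coactivator gene that also lies on chromosome 4, Set (0.994), Gm40394 (0.992), Gm12034 (0.992) and H2-Eb1 (0.991). With 6 points that share libraries, depth and 3 genotypes, 111 of the tested genes (0.535%) exceeded 0.95. Snhg3 reached 0.937 at rank 158 and Snhg8 0.879 at rank 528, while the other 6 members lay between 0.147 for Snhg5 and 0.607 for Snhg6.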

How the data were processed

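The authors prepared poly(A)-selected, directional libraries from testis RNA, trimmed the reads with Trim Galore and deposited whole-number STAR counts per gene on GRCm38, with no normalization; versions and the strand column are not given in the sources used here. All 55536 identifiers matched GENCODE release 21. The test was that of edgeR 4.0.16 in R 4.3.3: genes were kept by filterByExpr (minimum count 10), libraries scaled by TMM (factors 0.984 to 1.02), and 1 quasi-likelihood fit with genotype as its term was made over all 6 libraries, with 3 residual degrees of freedom. P-values were adjusted by Benjamini-Hochberg over all 20744 tested genes, and an adjusted p under 0.05 was a call. The standard error is the absolute log2 fold change divided by the square root of F. The fit was tested on simulated data. Groups of 2 libraries are too few for an exact permutation test to pass 0.05.

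The alternatives were RLE scaling, no filter, DESeq2 1.42.0, edgeR on the 2 genotypes compared, a replicate block, a length correction (lowess offsets, span 0.3), both together, and each library left out. Settings for genes other than the members were added after the data were seen. Members, lists and the naming rule were chosen with earlier results of these data known. The rule names the members, called or highest-count lncRNA hosts, the 3 largest changes among called protein-coding hosts, called neighbours within 250 kb, called snoRNP and NMD genes, 5 genes most like Snhg12, nested snoRNAs and overlapping genes. Rps20, Rpl27a, Snhg15, Snhg17, Snhg18, Prm1, Tnp1, Tnp2, Spaca1 and the uncalled core subunits and Upf1 were named after their values were seen. Copies were sought with BLAST 2.17.0. Same-numbered libraries did not deviate together (r from -0.0572 to 0.0574), so numbers do not pair them. A gene of the NMD list is not reported here, and the counts of that list are over its other 17 genes.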

Additional observations from a re-analysis of the deposited data

How the results depend on the processing

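Of the log2 differences of the 9 host genes, 178 kept direction and side of the threshold under another setting. A call was lost in 3 (all Snhg8, DKO against P2KO), and 6 turned sign, all close to 0. Snhg12 was chosen on its DKO values, so its part in these counts and in the counts of calls below is a description only. The turned values were Snhg5 in P2KO against WT (0.0057 with the length correction, 0.0102 with the block added), Snhg11 in DKO against WT (-0.0616 and -0.0579) and Snhg1 in DKO against P2KO (0.0057 and 0.0054). DESeq2 gave no adjusted p for Snhg6 in the DKO comparisons. With the replicate block the genes called in P2KO against WT were 45 instead of 70; it changed no call of the 9 host genes, but edgeR adjusted p values with it were 0.0901 for Fbl and 0.0561 for Srcap in DKO against WT, 0.0813 for Mroh9 in P2KO against WT, and from 0.0575 to 0.093 for Upf3a, Ep400, Cep295 and Dnah6 in DKO against P2KO. With the length correction added, that of Snhg8 was 0.0719. The numbers do not pair the libraries. The count was 140 without the filter and 41 with DESeq2. DESeq2 called 403 genes (668 by edgeR) in DKO against WT and 162 (250 by edgeR) in DKO against P2KO, where edgeR on those 2 genotypes called 579. The host genes called in DKO against P2KO were 1 with DESeq2, with the length correction and with both corrections. The cause was not tested.

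Leaving out each library in turn gave for all genes called 53 to 311 in P2KO against WT, 250 to 1065 in DKO against WT, 108 to 622 in DKO against P2KO, and for the host genes called from 1 to 3 in DKO against WT, 0 to 3 in DKO against P2KO, and for the median log2 fold change of the host genes from -0.33 to -0.0167 in DKO against WT. The median was nearest 0 without the second WT library, and both DKO comparisons had the fewest calls without the second DKO library. Snhg12 enters the DKO counts and medians of the host genes by choice, so these are a description only. Its log2 difference in DKO against P2KO lay at -0.84 without the second P2KO library and at -1.01 without the second DKO library. Signs turned in 15 of these log2 differences, in ranges of Snhg11 -0.15 to 0.22, Snhg5 -0.33 to 0.0815, Snhg6 -0.57 to 0.0315, Snhg20 -0.32 to 0.18 in DKO against WT, Gas5 -0.35 to 0.0467, Snhg5 -0.21 to 0.21, Snhg12 -0.40 to 0.0736 in P2KO against WT, Snhg5 -0.28 to 0.0702, Snhg1 -0.0772 to 0.0646, Gas5 -0.13 to 0.0023 in DKO against P2KO. An arm with 1 library left is assumed to vary like the others.

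With 2 mice per genotype, a single founder line and from 29.7 to 506 normalized counts per host gene, differences of the size of the standard errors given were not detectable, and the snoRNAs themselves were not measured.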
